A study of Mus musculus with 10 samples.

Results

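Oxidative phosphorylation subunits are the proteins of the respiratory chain (complexes I to IV) and of ATP synthase (complex V), and this account follows their transcripts in mouse liver endothelial cells. The members were taken by symbol: protein-coding genes whose names start with Nduf and a subunit letter and number, Sdha to Sdhd, Uqcr genes, Cox4 to Cox8 genes, Atp5 genes, and the mitochondrial mt-Nd, mt-Co, mt-Atp and mt-Cytb genes. This gave 97 of the 55385 genes listed in the files, 84 of them nuclear and 13 mitochondrial. By complex, the nuclear members number 37 in complex I, 4 in complex II, 8 in complex III, 18 in complex IV and 17 in complex V, and the mitochondrial members number 7, 0, 1, 3 and 2. The rule left out Ndufab1 and Cyc1, which encode subunits, and took in Atp5s, which is not a subunit of ATP synthase, and Ndufa4, which is now placed with complex IV but counts here under complex I by its name.

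RNA was sequenced from liver endothelial cells in 10 libraries, 5 labelled Alk1-HEC-KO with the genotype KO and 5 labelled Control with the genotype WT. For both groups, non-parenchymal cells were enriched by density gradient and those positive for CD146 (the product of Mcam, an endothelial surface protein) were pulled out with magnetic beads. Acvrl1, also called Alk1, encodes an endothelial receptor for BMP9 and BMP10. The sources used here do not give the Cre driver, the deleted exons, the age of the mice or any batch. Nor do the labels tie each library to a separate animal, and p-values therefore measure only the spread among these samples, which may be technical.

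Complex I (NADH dehydrogenase) and complex II (succinate dehydrogenase) feed electrons to ubiquinone, complex III passes them to cytochrome c and complex IV hands them to oxygen, while complexes I, III and IV pump the protons that drive ATP synthase. Most subunits are made from nuclear genes and imported, but some membrane subunits of complexes I, III, IV and V are encoded on the mitochondrial genome. That genome is transcribed from both strands as long precursors, which are cut into separate messenger RNAs. Complex II is wholly nuclear encoded. Endothelial cells are known for making much of their ATP by glycolysis, and hepatocytes for being rich in mitochondria.

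Levels are given as read counts relative to library size (CPM), scaled between libraries by the trimmed mean of M-values (TMM), and as the deposited length-corrected relative abundances (TPM) where genes are set against each other, since TPM takes transcript length into account. A gene is said to have risen or fallen where its Benjamini-Hochberg adjusted p from edgeR's quasi-likelihood test, over all 15043 genes tested, was below 0.05. Fold changes are on the log2 scale, libraries labelled Alk1-HEC-KO over controls, with their standard error (SE). Library totals lay between 23489494 and 23602771 estimated counts, so depth was almost equal. Of all genes tested, 1593 rose and 1366 fell. With libraries scaled by their totals alone the split was 1968 against 1024, and on log2(TPM + 1) it was 1568 against 583.

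The targeted gene did not follow its label. Acvrl1 had 239, 246, 250, 258 and 245 CPM in the libraries labelled Alk1-HEC-KO, against 124, 125, 136, 114 and 135 CPM in controls. The groups did not overlap, and the gene named as knocked out was higher in the libraries that carry that label (log2 fold change 0.96 ± 0.05 SE, adjusted p = 1.7e-07). These libraries are therefore called libraries labelled Alk1-HEC-KO, or knockout-labelled libraries, throughout. Counts per gene do not show which part of a transcript was read, so exchanged labels and a deletion of only part of the transcript cannot be told apart here. Were the labels exchanged, every rise and fall given below would turn round. The 10 endothelial markers listed were all detected, with summed levels of 17269 to 18835 CPM in knockout-labelled libraries and 21958 to 24977 CPM in controls. Of these markers, 2 rose and 5 fell. These are shares of 20% and 50%, against 10.6% and 9.08% of all genes tested. The list went both ways, with 3 markers higher and 5 lower without overlap. In bulk RNA, fewer cells of a type and less RNA per cell cannot be told apart.

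The mitochondrial messenger RNAs were the most abundant of the set, and on average over the 10 libraries each stood above every nuclear subunit in TPM. Mean levels ran from 1397 TPM for mt-Nd5 to 17044 TPM for mt-Co1, the catalytic subunit of complex IV. Among nuclear members, Atp5b, the catalytic beta subunit of ATP synthase, led with 770 TPM, followed by Cox6a1 with 712 TPM and Cox8a with 535 TPM. The abundant members of the other complexes were Uqcrb with 481 TPM in complex III, Ndufa4 with 385 TPM, and Sdhc with 135 TPM in complex II. At the low end stood 6 members with too few counts to be tested: Cox4i2, Cox6a2, Cox6b2, Cox7a1, Cox7b2 and Cox8c. All are isoforms known from particular tissues or conditions. None had more than 13 counts in any library, and Cox8c had 0 in all 10. The 91 members tested comprise 78 nuclear and all 13 mitochondrial ones.

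All 13 mitochondrially encoded subunits had lower mean levels in the knockout-labelled libraries, and 6 of them fell, with a median log2 fold change of -0.42 over the 13 (range -0.57 to -0.24). Over all genes tested, 9.08% fell and the median was 0.00. The fallen members were mt-Nd1, mt-Nd2, mt-Nd4 and mt-Nd6 of complex I, mt-Cytb of complex III and mt-Co1 of complex IV. The groups did not overlap for 5 of the 13, against 7.05% of all genes that were lower without overlap. The members moved together across libraries, Control 4 being the highest control for all 13. Such counts of members are therefore not counts of independent observations. The summed level of the 13 was 33261, 34010, 39272, 39241 and 32137 CPM in knockout-labelled libraries, against 40102, 42106, 46222, 64697 and 45283 CPM in controls. Every knockout-labelled sum in CPM lay below every control sum, and Control 4 stood far above the other controls. In TPM the sums overlapped, with knockout-labelled library 3 at 96286 TPM and Control 1 at 95752 TPM. The TPM means were 85702 ± 7766 in knockout-labelled libraries and 106270 ± 15424 in controls. As a share of all estimated counts the 13 made up 3.61% ± 0.332 in knockout-labelled libraries and 4.67% ± 0.822 in controls (SD, n = 5 each).

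In complex I, mt-Nd4, which encodes a proton-pumping subunit of the membrane arm, had 3317, 3120, 3897, 3725 and 3051 CPM in knockout-labelled libraries, against 4152, 3997, 4632, 6631 and 4557 CPM in controls. Each knockout-labelled library was below each control (log2 fold change -0.49 ± 0.13 SE, adjusted p = 0.023). The related pump subunit mt-Nd2 had 1812, 1854, 2125, 2159 and 1878 CPM in knockout-labelled libraries, against 2325, 2335, 2646, 3994 and 2541 CPM in controls, again without overlap (log2 fold change -0.49 ± 0.14 SE, adjusted p = 0.029). mt-Nd6, the member read from the opposite strand to the other 12, averaged 300 ± 13.4 CPM in knockout-labelled libraries and 415 ± 102 CPM in controls (SD, n = 5 each), without overlap and at a similar size (log2 fold change -0.47 ± 0.14 SE, adjusted p = 0.034). mt-Nd1, part of the ubiquinone-binding region, fell too, with 1 knockout-labelled library above the lowest control (log2 fold change -0.38 ± 0.12 SE, adjusted p = 0.037). mt-Nd4l and mt-Nd5 had log2 fold changes of -0.46 and -0.41 that did not pass (adjusted p = 0.063 and 0.067), and mt-Nd3 one of -0.28 (adjusted p = 0.52).

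mt-Cytb encodes cytochrome b, the sole complex III subunit made in mitochondria, and had 3538, 3393, 3911, 4117 and 3107 CPM in knockout-labelled libraries, against 4102, 4192, 5008, 6669 and 4377 CPM in controls. The highest knockout-labelled library lay just above the lowest control, and the others did not overlap (log2 fold change -0.43 ± 0.13 SE, adjusted p = 0.040). For mt-Co1 the levels were 12008, 11650, 13694, 14074 and 12226 CPM in knockout-labelled libraries, against 14547, 14813, 16184, 22352 and 15953 CPM in controls. They did not overlap (log2 fold change -0.40 ± 0.11 SE, adjusted p = 0.028). mt-Atp6, the proton channel subunit of ATP synthase, had the largest difference of the 13 in size, -0.57 ± 0.19 SE, and no overlap, but did not pass (adjusted p = 0.0555). mt-Atp8, mt-Co2 and mt-Co3 had log2 fold changes of -0.39, -0.24 and -0.42 and did not pass either. mt-Co2 carries the copper site that takes electrons from cytochrome c, and mt-Co3 is the remaining mitochondrial core subunit of complex IV.

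**Figure D1:**
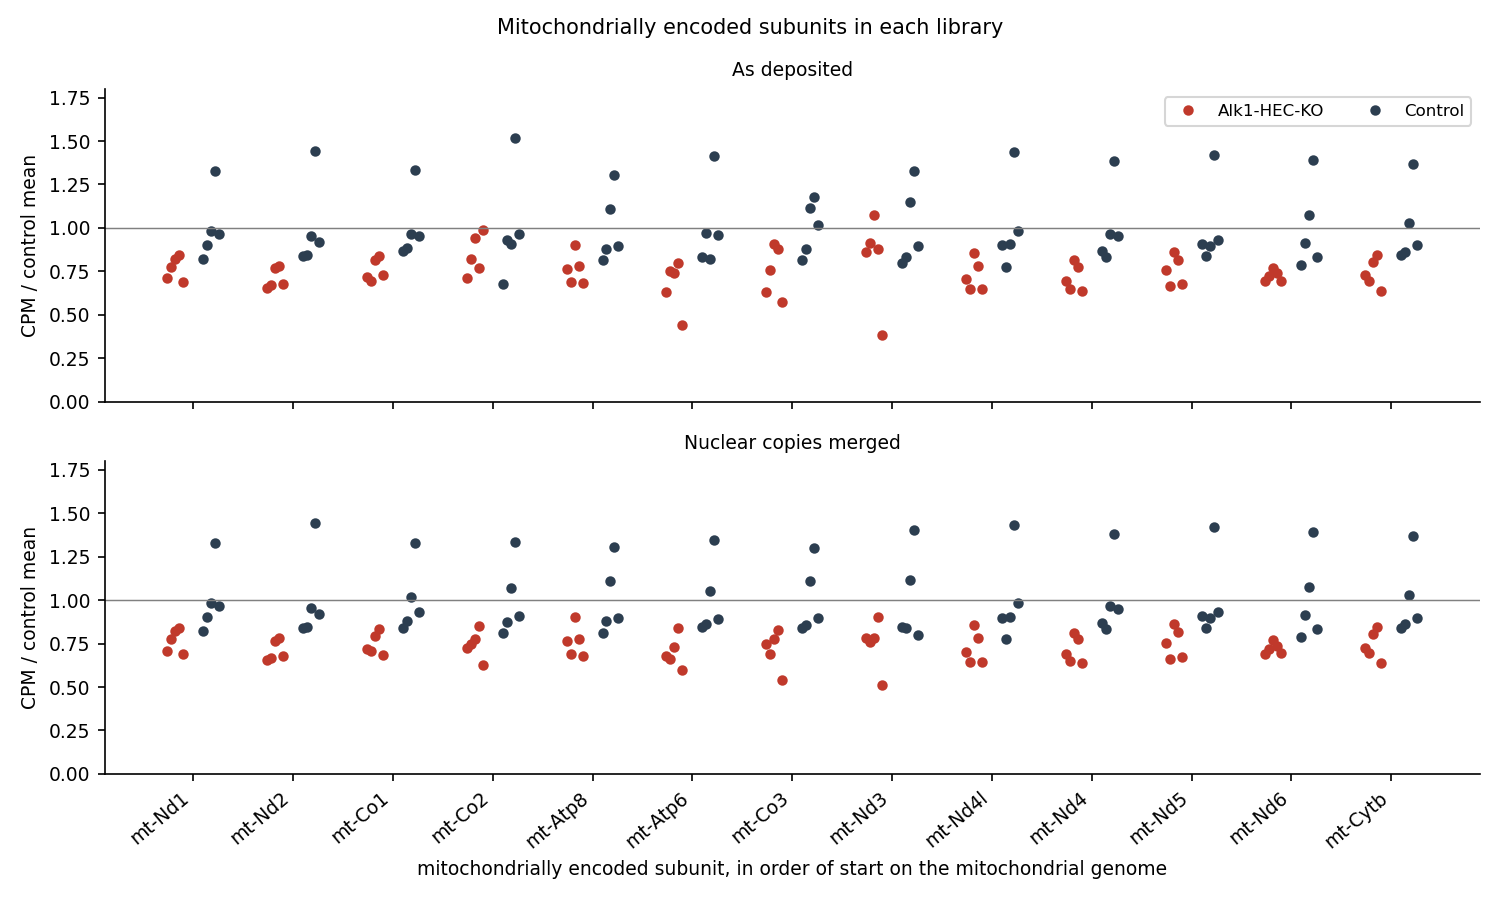
Level of each mitochondrially encoded subunit in each library, divided by the control mean (CPM over CPM), as deposited (top) and with the reads of nuclear copies added (bottom), in order of position on the mitochondrial genome. Knockout-labelled libraries (red, left of each pair) lie mostly below 1, Control 4 is the highest control for all 13 genes in both panels, and the scatter of mt-Co2, mt-Co3, mt-Nd3 and mt-Atp6 among knockout-labelled libraries shrinks once the copies are added.

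Nuclear copies of mitochondrial genes took a large part of the reads of some of these members. A block of 5 pseudogenes on chromosome 1 (24612775 to 24616197, GRCm38) held 2348838 estimated counts over the 10 libraries, and their transcripts match mt-Co1, mt-Co2, mt-Atp6, mt-Co3 and mt-Nd3. Gm28661 equals mt-Co2 over all its 681 bases, Gm10925 equals mt-Atp6 over 678 bases and Gm28437 equals mt-Co3 over 783 bases, so no read from inside these stretches tells the gene from the copy. Gm28438 and mt-Nd3 differ at a single base near the start, written T3C with positions counted from 1 at the first base of mt-Nd3 (T in mt-Nd3, C in the copy). The first 60 bases of both are shown to make plain how little there is for a read to go by, with the differing base in capitals.
mt-Nd3: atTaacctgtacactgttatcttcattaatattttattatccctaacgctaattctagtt
Gm28438: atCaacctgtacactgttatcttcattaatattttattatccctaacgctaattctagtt
The first lies on the mitochondrial genome from 9459 to 9518 on the plus strand, the second on chromosome 1 from 24613060 to 24613119 on the minus strand (GRCm38, GENCODE transcripts).

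How these reads were divided varied by library. The copy Gm28661 was given 60.5, 55.6, 51.1, 63.7 and 37.0% of the joint mt-Co2 and Gm28661 counts in knockout-labelled libraries, against 66.4, 57.3, 65.8, 54.2 and 57.4% in controls. The lowest share was in knockout-labelled library 5, where the deposited mt-Co2 level, 2592 CPM, was the highest of its group. With copies added to their genes, a step chosen after the data were seen, mt-Co2 had 4721, 4869, 5073, 5547 and 4111 CPM in knockout-labelled libraries, against 5307, 5716, 6975, 8714 and 5942 CPM in controls. Its log2 fold change became -0.43 ± 0.13 SE, in place of -0.24 ± 0.19 SE as deposited, and it fell (adjusted p = 0.037).

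With copies added, 9 of the 13 members fell, against 9.13% of all genes in that fit. The groups did not overlap for 6 of the 13, against 7.06% of all genes that were lower without overlap. The median log2 fold change was -0.43 with a range of -0.51 to -0.38. The range among the members thus narrowed while the median moved little. The additional members were mt-Co2, mt-Co3 (-0.48 ± 0.14 SE, adjusted p = 0.036) and mt-Atp6 (-0.51 ± 0.13 SE, adjusted p = 0.0195). For mt-Atp6 the levels were 5166, 5046, 5572, 6368 and 4558 CPM in knockout-labelled libraries, against 6426, 6544, 8015, 10256 and 6785 CPM in controls. mt-Nd3, mt-Nd4l, mt-Nd5 and mt-Atp8 still did not pass, at log2 fold changes of -0.42, -0.46, -0.41 and -0.39. The ribosomal RNAs of the same genome did not pass the test. mt-Rnr1 averaged 439 ± 86.3 CPM in knockout-labelled libraries and 494 ± 160 CPM in controls, and mt-Rnr2 averaged 2283 ± 492 CPM and 1981 ± 471 CPM (SD, n = 5 each), at adjusted p = 0.64 and 0.49 from edgeR. Their difference from the messenger RNAs was not tested.

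The number of mitochondrial members that fell changed with single libraries and with a hepatocyte covariate. Without Control 4, 4 of the 13 fell as deposited and 6 with copies added, with medians of -0.29 and -0.30. Without knockout-labelled library 2 or 5, 0 fell as deposited, at medians of -0.42 and -0.39, and 1 with copies added, at medians of -0.43 and -0.39. Without knockout-labelled library 1 the counts were 1 as deposited and 3 with copies added, and without Control 3 they were 3 and 4. The 11 hepatocyte markers sum to 828, 1135, 598, 673 and 500 CPM in knockout-labelled libraries, against 760, 1753, 855, 1667 and 491 CPM in controls, so that Controls 2 and 4 stand out. Of these, Control 4 has the highest mitochondrial sum of the controls and Control 2 the second lowest. None of the 11 was at 0. In edgeR 9 of the 11 had a log2 fold change below 0, at a median of -1.10, and 5 had an unadjusted p below 0.05. Over all 15043 genes tested, 7519 were below 0 and 4859 had an unadjusted p below 0.05, at a median of 0.00. Only 1 of the 11 markers, Apoh, fell (9.09%, against 9.08% of all genes tested). With the mean log2 level of the hepatocyte markers as a covariate 0 of the 13 passed in edgeR, as deposited or with copies added, at a median of -0.32. Of all genes, 2099 passed with this covariate, in place of 2959 without it. Without Controls 2 and 4, which was chosen after the data were seen, 3 of the 13 fell at a median of -0.31. Bile duct markers were higher in knockout-labelled libraries, with sums of 359 to 613 CPM against 182 to 262 CPM in controls. Of these 6 markers, 4 rose (66.7%, against 10.6% of all genes tested). Their part in the result was not tested.

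**Figure D2:**
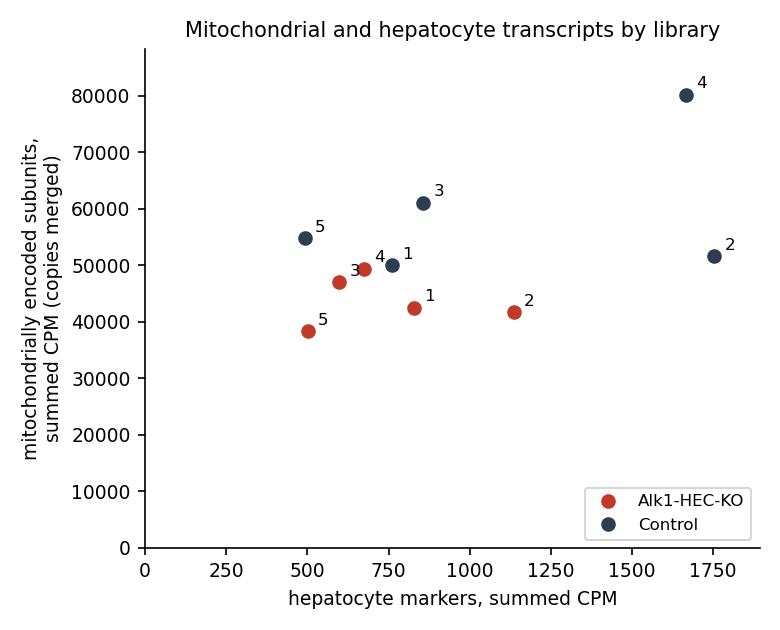
Summed level of the 13 mitochondrially encoded subunits with copies added (vertical axis, CPM) against the summed level of 11 hepatocyte markers (horizontal axis, CPM), 1 point per library with its replicate number. Control 4 is high on both axes at 80204 and 1667 CPM, Control 2 is high in hepatocyte markers alone, and Control 5 lies above all knockout-labelled libraries in mitochondrial level at 491 CPM of hepatocyte markers.

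The nuclear encoded subunits moved less. Of the 78 tested, 5 fell and 1 rose, shares of 6.41% and 1.28%, against 9.08% and 10.6% of all genes tested. Their median log2 fold change was -0.09, and 66 of the 78 were below 0. That direction depends on the scaling: on log2(TPM + 1) the nuclear median was 0.01 while that of all genes was 0.08, so that the nuclear median lay below that of all genes under both scalings. The summed nuclear level was 5923, 5834, 5682, 6208 and 5810 CPM in knockout-labelled libraries, against 5671, 6247, 6407, 6544 and 5841 CPM in controls. The groups overlapped, and in TPM the means were 15532 ± 489 in knockout-labelled libraries and 15295 ± 426 in controls (SD, n = 5 each).

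Among the 37 nuclear complex I members, 3 fell (8.11%, against 9.08% of all genes tested) and the median was -0.11. Ndufs8, a subunit that carries iron-sulfur clusters in the electron path, had 50.1, 48.6, 45.5, 51.7 and 45.3 CPM in knockout-labelled libraries, against 53.7, 58.4, 60.1, 57.2 and 55.2 CPM in controls. All 5 knockout-labelled libraries were below all 5 controls (log2 fold change -0.24 ± 0.05 SE, adjusted p = 0.0076). Ndufs1, the large iron-sulfur subunit, had 50.8, 53.8, 48.9, 51.8 and 49.5 CPM in knockout-labelled libraries, against 56.5, 58.4, 56.4, 54.5 and 58.5 CPM in controls. These groups did not overlap either, at a smaller difference (log2 fold change -0.16 ± 0.04 SE, adjusted p = 0.026). Ndufv3, an accessory subunit next to the NADH-binding site, averaged 44.5 ± 1.46 CPM in knockout-labelled libraries and 50.1 ± 2.48 CPM in controls, without overlap (log2 fold change -0.17 ± 0.05 SE, adjusted p = 0.030). The other 34 did not pass. They include Ndufa4, at 84.3 ± 6.79 CPM in knockout-labelled libraries and 93.5 ± 9.28 CPM in controls, and Ndufa3, an accessory subunit, at 41.7 ± 3.45 CPM and 46.9 ± 5.51 CPM (SD, n = 5 each).

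None of the 4 complex II members passed, with log2 fold changes from -0.12 to -0.03. Sdha, the flavoprotein that oxidises succinate, averaged 203 ± 8.55 CPM in knockout-labelled libraries and 219 ± 11.6 CPM in controls, and Sdhc, a membrane anchor, 88.0 ± 6.88 CPM and 90.0 ± 3.53 CPM (SD, n = 5 each). In complex III, 2 of 8 fell (25%, against 9.08% of all genes tested). Uqcrc2, a core subunit, had 128, 121, 120, 126 and 118 CPM in knockout-labelled libraries, against 133, 140, 131, 147 and 136 CPM in controls, without overlap (log2 fold change -0.16 ± 0.05 SE, adjusted p = 0.028). Uqcrb, a small subunit that binds ubiquinone, had 98.6, 104, 102, 103 and 90.3 CPM in knockout-labelled libraries, against 103, 114, 115, 124 and 115 CPM in controls. Its groups overlapped slightly (log2 fold change -0.20 ± 0.06 SE, adjusted p = 0.032). Of its 31-base words, 34.8% occur in transcripts of other genes, but the pseudogenes that share most of them were given few counts. Uqcrh, the hinge protein of the same complex, did not pass (59.2 ± 5.99 CPM in knockout-labelled libraries and 62.3 ± 7.89 CPM in controls, SD, n = 5 each).

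Among complex V members, 0 of 17 passed in the edgeR fit over all libraries with TMM scaling, and 2 had an unadjusted p below 0.05. Atp5b passed with DESeq2 and with library size alone, and Atp5h passed without Control 1. Atp5b had 603, 589, 569, 612 and 613 CPM in knockout-labelled libraries, against 542, 574, 559, 564 and 540 CPM in controls (log2 fold change 0.10 ± 0.05 SE, adjusted p = 0.13). Its highest control exceeded its lowest knockout-labelled library only slightly. Atp5h, a stalk subunit, averaged 117 ± 7.88 CPM in knockout-labelled libraries and 129 ± 11.6 CPM in controls (SD, n = 5 each). Atp5g2, which encodes the ring subunit that rotates with the proton flow, is uncertain, since the pseudogene Gm10175 was given 95.4 to 98.3% of their joint counts. With those counts added Atp5g2 averaged 101 ± 4.46 CPM in knockout-labelled libraries and 96.8 ± 6.73 CPM in controls (adjusted p = 0.54).

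**Figure D3:**
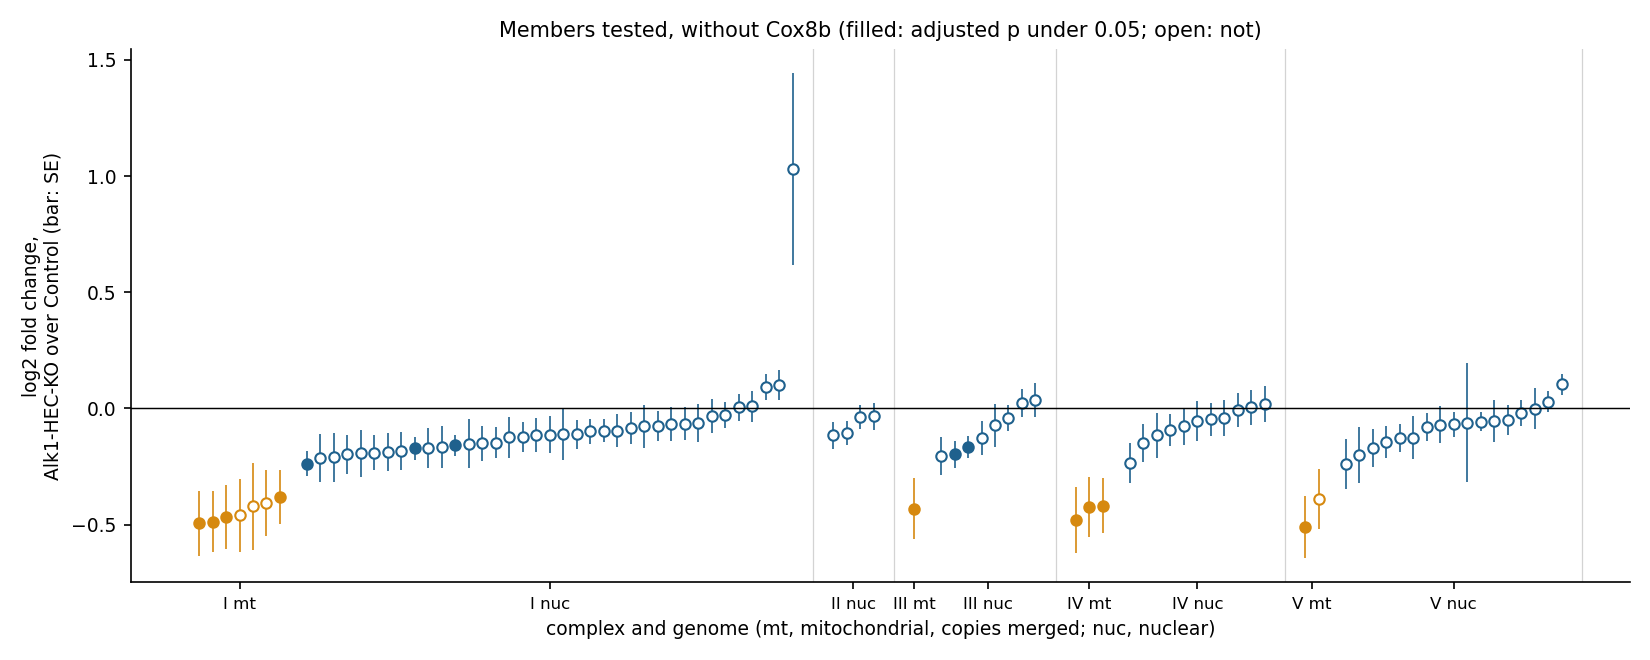
Log2 fold change of each tested member except Cox8b, libraries labelled Alk1-HEC-KO over Control, with its standard error (bars), by complex and by genome; mitochondrial members (orange) have copies added. Filled points passed the test, the mitochondrial members lie between -0.51 and -0.38, and nearly all nuclear members (blue) lie between -0.24 and 0.10, with Ndufa4l2 at 1.03 and a wide bar.

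All of the 5 nuclear decreases are small, and only Ndufs8 fell under each removal of 1 library. In TPM the groups overlapped for all 5. Ndufv3 averaged 141 ± 6.43 TPM in knockout-labelled libraries and 142 ± 8.31 TPM in controls, and Uqcrc2 123 ± 3.98 TPM and 125 ± 7.95 TPM. Ndufs8 averaged 130 ± 5.61 TPM and 143 ± 6.91 TPM (SD, n = 5 each). None of the 5 passed on log2 TPM or with the hepatocyte covariate, and with libraries scaled by their totals alone only Ndufs8 did. Without Control 2 the count was 1, without Control 4 it was 2, and without Control 1 it was 8. It was 3 without knockout-labelled library 1, 3 or 5, or without Control 3 or 5. Knockout-labelled library 4 was the highest of its group for 47 of the 78 nuclear members tested, and Control 1 the lowest of its group for 49.

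The member that rose was Cox8b, the subunit 8 isoform of complex IV that in the mouse is known from heart, skeletal muscle and brown fat. It was nearly silent in controls. Cox8b (ENSMUSG00000025488.9) lies on chromosome 7 from 140898945 to 140900446 on the minus strand (GRCm38). It had 112, 99, 55, 123 and 101 estimated counts in knockout-labelled libraries, against 0, 0, 2, 0 and 4 in controls. Every knockout-labelled library was far above every control, against 8.4% of all genes that were higher without overlap. Summed, these are 490 against 6 counts, a ratio of 81.7 with an exact 95% interval of 37.3 to 224 that covers counting error only. The fitted log2 fold change was 6.17 ± 0.53 SE (adjusted p = 7e-06 from edgeR). Cox8b passed the count filter through the knockout-labelled libraries alone, where it is high, so its p is not separate support for the counts. The fold change rests on few control counts: without Control 5 it was 7.25, and over all 34 alternatives it ran from 4.80 to 7.25. Cox8b passed in each, with the same limit.

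Cox8a, the isoform found in most tissues, hardly differed. Its deposited level was 523, 547, 515, 573 and 533 TPM in knockout-labelled libraries, against 502, 542, 562, 528 and 528 TPM in controls (log2 fold change in CPM -0.09 ± 0.07 SE, adjusted p = 0.40). Cox8b stood at 42.6, 38.4, 21.3, 46.1 and 39.1 TPM in knockout-labelled libraries, against 0, 0, 0.70, 0 and 1.51 TPM in controls. It thus made up 3.97 to 7.54% of the pair's TPM in knockout-labelled libraries and 0 to 0.286% in controls. No 31-base word of Cox8b occurs in transcripts of other genes, so no transcript in that annotation shares such words with it.

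**Figure D4:**
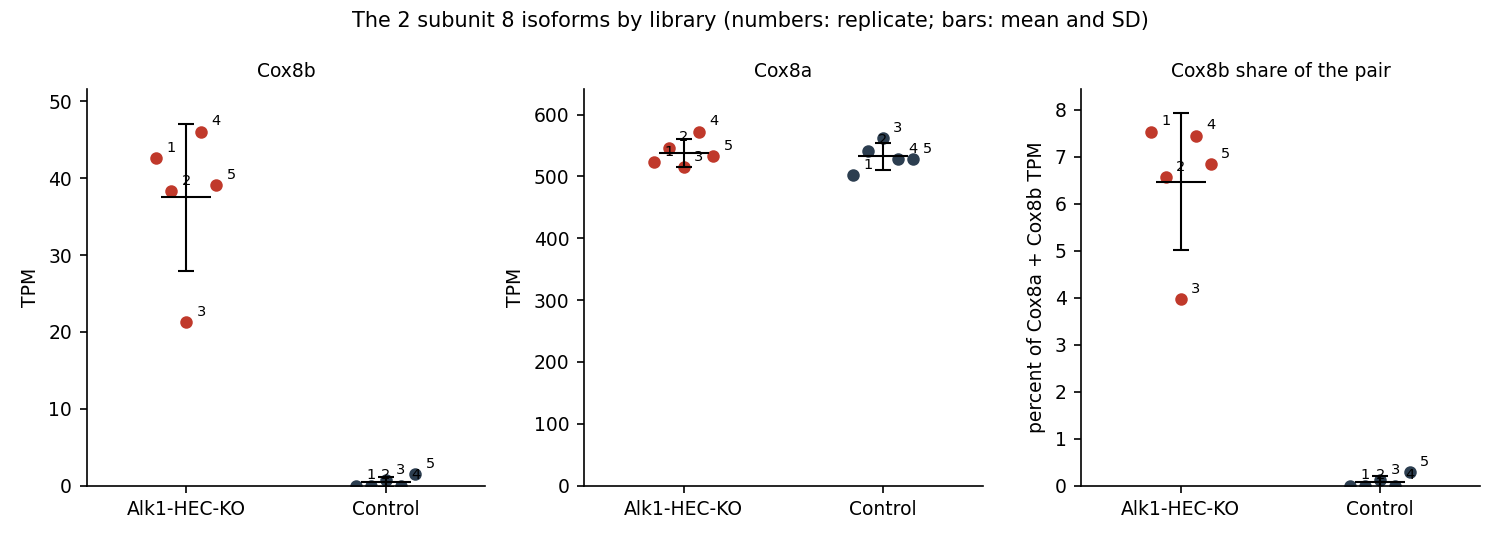
Deposited level (TPM) of Cox8b (left) and Cox8a (middle), and the share of Cox8b in their sum (right, percent), by library with replicate numbers; bars show the mean and SD of each group of 5. The 5 knockout-labelled libraries lie between 21.3 and 46.1 TPM for Cox8b and all controls below 2 TPM, while Cox8a overlaps.

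Muscle isoforms of other complex IV subunits were barely detected in either group. Cox6a2 totalled 26 counts in knockout-labelled libraries and 25 in controls, and Cox7a1 totalled 48 and 39, all too low to be tested. Their common partners Cox6a1 and Cox7a2 averaged 171 ± 18.7 CPM and 56.3 ± 5.57 CPM in knockout-labelled libraries, and 178 ± 17.6 CPM and 61.0 ± 8.55 CPM in controls (SD, n = 5 each). Neither passed. Cox4i2, the oxygen-responsive partner of Cox4i1, totalled 20 counts in knockout-labelled libraries and 21 in controls. Cox6b2, known from testis, totalled 41 and 38, and Cox7b2 had 2 counts in knockout-labelled libraries and 0 in controls. Cox4i1, Cox6b1 and Cox7b, their abundant counterparts, had log2 fold changes of 0.00, -0.01 and -0.08 and did not pass. The sign turned in 12 of 34 alternatives for Cox6b1 and in 11 of 34 for Cox4i1, removals of single libraries among them. Ndufa4l2, a hypoxia-inducible relative of Ndufa4, had 21, 11, 21, 13 and 19 counts in knockout-labelled libraries, against 9, 1, 7, 11 and 12 in controls (log2 fold change 1.03 ± 0.41 SE, adjusted p = 0.10).

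A list of 10 striated muscle and brown fat genes, chosen after the data were seen, summed to 0.66 to 0.88 CPM in knockout-labelled libraries and 0.41 to 1.92 CPM in controls, and Mb, which encodes myoglobin, had no counts in any library. The genes beside Cox8b did not pass the test: Psmd13, a proteasome subunit, averaged 63.0 ± 2.47 CPM in knockout-labelled libraries and 63.7 ± 5.10 CPM in controls, and the mitochondrial deacetylase gene Sirt3 7.40 ± 0.751 CPM and 8.06 ± 0.482 CPM (SD, n = 5 each). On the other side, the nearest gene, BC024386, had a log2 fold change of -0.89 (adjusted p = 0.087), Nlrp6 one of -0.56 (adjusted p = 0.15) and Pgghg one of -0.30 (adjusted p = 0.073).

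The upstream sequences of the subunit 8 pair are shown because the isoforms diverged so far in level. Each runs from 250 bases before to 30 after the RefSeq start (GRCm38.p6), 5′ to 3′, with matches to the searched motifs in capitals.
Cox8b: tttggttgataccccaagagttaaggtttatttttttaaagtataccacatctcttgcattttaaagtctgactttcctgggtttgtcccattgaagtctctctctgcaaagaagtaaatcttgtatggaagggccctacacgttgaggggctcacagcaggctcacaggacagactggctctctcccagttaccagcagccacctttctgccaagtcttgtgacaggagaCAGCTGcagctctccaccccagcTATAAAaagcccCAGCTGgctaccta
Cox8a: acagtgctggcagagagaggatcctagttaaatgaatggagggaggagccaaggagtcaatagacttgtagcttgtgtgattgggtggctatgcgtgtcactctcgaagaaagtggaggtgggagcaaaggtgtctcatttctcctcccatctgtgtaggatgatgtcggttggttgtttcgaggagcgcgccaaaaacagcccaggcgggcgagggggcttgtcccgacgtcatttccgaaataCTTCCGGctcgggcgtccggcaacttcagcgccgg
The Cox8b window is chr7:140900417-140900696 and the Cox8a window is chr19:7217587-7217866, both on the minus strand. Cox8b holds CAGCTG, an E-box that reads the same on both strands, with first bases 19 before and 17 after the start, and TATAAA on its own strand from base 5 after the start. These matches do not overlap. Cox8a holds CCGGAAG, an ETS motif, on its opposite strand from base 5 before the start, and none of the others. Of all 32851 RefSeq windows, 14.9% hold CAGCTG, 8.02% hold TATAAA and 8.45% hold CCGGAAG.

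Of the 84 nuclear members, 62 had a RefSeq start within 500 bases of the GENCODE start. The NRF1 motif, searched on both strands, was in 22.6% of these and in 4.41% of all windows, and CCGGAAG was in 24.2% against 8.45%. NRF1 and the ETS family factor GABP are textbook regulators of nuclear respiratory genes. Of the 5 nuclear members that fell, only Ndufs8 and Ndufv3 had such a window, and Ndufs8 holds a CCGGAAG match. Searched on both strands, AAGATGGC (YY1) was in 3.23% of member windows against 2.29% of all, TCAAGGTCA (ERR) in 1.61% against 0.417%, the MEF2 motif in 1.61% against 3.5%, and CAGCTG in 9.68% against 14.9%. TATAAA, on the gene's strand, was in 4.84% against 8.02%. A match describes these letters only.

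Set against each other, the 2 genomes' subunits gave a lower mitochondrial to nuclear ratio in the knockout-labelled libraries. The ratio of summed CPM was 5.62, 5.83, 6.91, 6.32 and 5.53 in knockout-labelled libraries, against 7.07, 6.74, 7.21, 9.89 and 7.75 in controls. Knockout-labelled library 3 lay above Control 2, and the other libraries did not overlap. With copies added the ratio was 7.07, 7.03, 8.14, 7.83 and 6.50 in knockout-labelled libraries, against 8.70, 8.15, 9.39, 12.1 and 9.24 in controls, with library 3 just under Control 2. The mean difference in the log2 ratio was -0.35 as deposited, -0.37 with copies added and -0.33 in TPM. Without Control 4 it was -0.26, and the SD of the log2 ratio as deposited was 0.13 in knockout-labelled libraries and 0.22 in controls (n = 5 each).

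**Figure D5:**
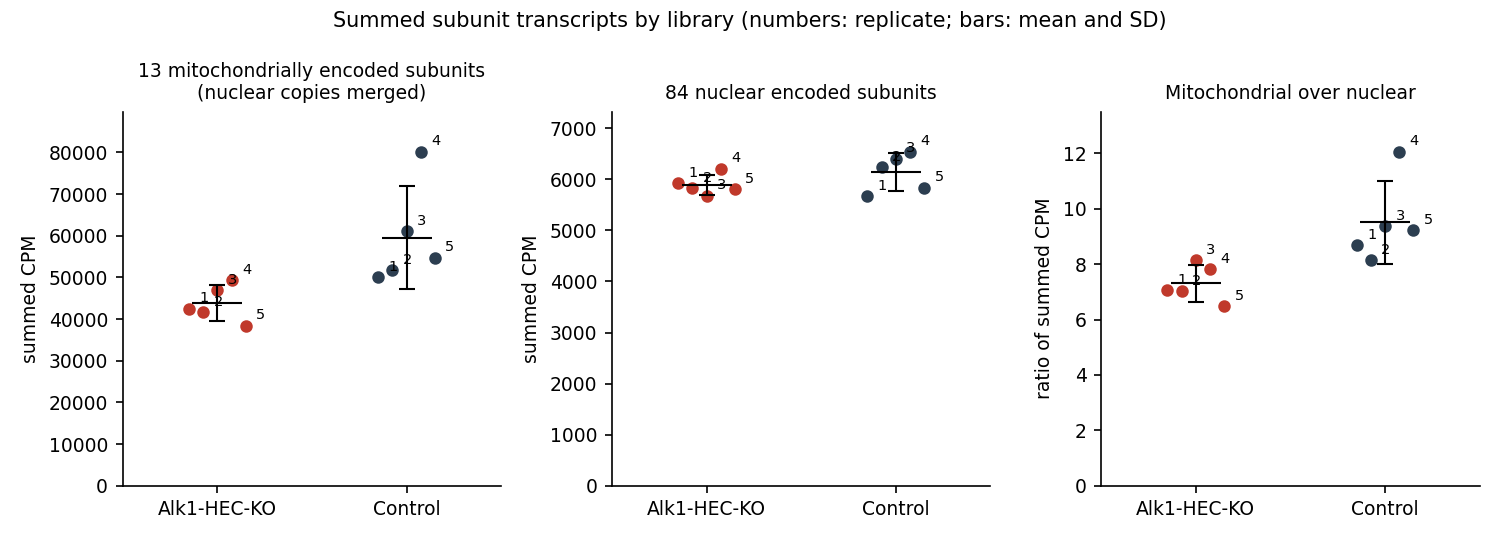
Summed CPM of the 13 mitochondrially encoded subunits with copies added (left), of the 84 nuclear encoded subunits (middle), and the ratio of these sums (right), by library with replicate numbers; bars show the mean and SD of each group of 5. The mitochondrial sums of knockout-labelled libraries, 38399 to 49392 CPM, lie below those of controls, 50070 to 80204 CPM, while the nuclear sums overlap.

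Complexes I, III, IV and V draw on both genomes, and their sums are given side by side. In complex I the mitochondrial sum with copies added averaged 10963 ± 1019 CPM in knockout-labelled libraries and 14919 ± 3309 CPM in controls, and the nuclear sum 1679 ± 73.6 CPM and 1792 ± 132 CPM. In complex III, mt-Cytb alone averaged 3613 ± 404 CPM in knockout-labelled libraries and 4870 ± 1066 CPM in controls, and the nuclear sum 592 ± 26.6 CPM and 638 ± 38.1 CPM. In complex IV the same sums were 23441 ± 2304 CPM in knockout-labelled libraries and 31574 ± 6242 CPM in controls for mitochondrial members, and 1147 ± 63.7 CPM and 1186 ± 102 CPM for nuclear ones. In complex V the mitochondrial sum was 5791 ± 709 CPM in knockout-labelled libraries and 8193 ± 1729 CPM in controls, and the nuclear sum 2078 ± 42.6 CPM and 2107 ± 100.2 CPM (SD, n = 5 each throughout). The mitochondrial sums without overlap were those of complexes I and V.

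Genes that build, express and serve the respiratory chain were looked at in the same fit. Of 16 complex I assembly factors, 1 fell and none rose, at a median log2 fold change of -0.02. It was Ndufaf3, with 12.2 ± 0.743 CPM in knockout-labelled libraries and 14.6 ± 1.15 CPM in controls. Of 33 assembly factors of complexes II to V, 2 fell: Sdhaf3, which helps mature the iron-sulfur subunit of complex II, with 4.44 ± 0.484 CPM in knockout-labelled libraries and 6.35 ± 0.481 CPM in controls, and Cox10, an enzyme of heme A synthesis, with 19.2 ± 1.89 CPM and 23.4 ± 1.75 CPM. Sdhaf3 lost the call on log2 TPM only, while Ndufaf3 lost it under 16 and Cox10 under 12 of the 34 alternatives. Of 32 genes that maintain or process mitochondrial DNA and RNA, Polg, the catalytic subunit of the mitochondrial DNA polymerase, rose (81.9 ± 4.01 CPM in knockout-labelled libraries and 68.5 ± 5.80 CPM in controls) and Mterf3, which in the mouse represses mitochondrial transcription, fell (27.7 ± 1.93 CPM and 31.7 ± 1.62 CPM). The median of that list was -0.02, and Mterf3 lost the call under 22 of the 34 alternatives. These values are means and SD over n = 5 each.

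The list of 23 regulators of respiratory genes had 2 members that rose and 1 that fell, and its median of 0.12 was above that of all genes. Myc, a transcription factor that drives growth, had 25.3, 18.1, 14.0, 16.7 and 21.7 CPM in knockout-labelled libraries, against 7.82, 8.67, 8.72, 5.40 and 8.11 CPM in controls. Every knockout-labelled library was above every control (log2 fold change 1.31 ± 0.17 SE, adjusted p = 0.00022). Foxo3, a stress-responsive forkhead factor, rose without overlap (0.38 ± 0.07 SE, adjusted p = 0.0022). Esrrb, an orphan receptor related to the estrogen-related receptor alpha, had 22.5, 25.7, 23.9, 24.5 and 29.1 CPM in knockout-labelled libraries, against 43.4, 38.0, 46.1, 54.9 and 68.9 CPM in controls (fold 0.501, adjusted p = 0.00069). The groups did not overlap. These 3 calls held under every alternative run. The coactivator gene Ppargc1a was low, at 1.15 ± 0.522 CPM in knockout-labelled libraries and 0.655 ± 0.209 CPM in controls, and did not pass, nor did Nrf1 or Gabpa.

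Of 19 citric acid cycle and pyruvate dehydrogenase genes, 1 rose: Idh2, the mitochondrial NADP-dependent isocitrate dehydrogenase, had 57.9, 61.2, 54.9, 56.7 and 54.6 CPM in knockout-labelled libraries, against 46.4, 42.4, 40.6, 49.4 and 44.9 CPM in controls (log2 fold change 0.35 ± 0.06 SE, adjusted p = 0.0013). The groups did not overlap, and the call held under every alternative run. Of 28 import and carrier genes, 1 rose and 2 fell. Slc25a4, which encodes an ADP/ATP carrier, fell (121 ± 9.88 CPM in knockout-labelled libraries and 147 ± 3.95 CPM in controls), as did Timm23 of the inner membrane import channel (64.8 ± 4.14 CPM and 75.0 ± 5.66 CPM), while Slc25a3, the phosphate carrier, rose (216 ± 11.3 CPM and 190 ± 10.5 CPM, SD, n = 5 each). Timm23 and Slc25a3 lost their calls under 21 and 19 of the 34 alternatives.

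Of 78 mitochondrial ribosomal protein genes, Mrps27 rose (19.7 ± 1.26 CPM in knockout-labelled libraries and 16.8 ± 1.30 CPM in controls) and Mrps5 fell (36.2 ± 1.38 CPM and 42.6 ± 2.18 CPM, SD, n = 5 each), at a list median of -0.07. Mrps27 lost the call under 17 of the 34 alternatives, 7 of the 10 removals of a single library among them, and Mrps5 under 2. None of 8 other chain proteins, among them cytochrome c (Cycs), Cyc1 and Ndufab1, passed with edgeR, and none had an unadjusted p below 0.05. Against the 19.7% of all genes that were called in either direction, each of these lists had a smaller share of calls.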

How the data were processed

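Liver endothelial RNA was sequenced on BGISEQ-500, per the labels. The submitters' processing notes name Trim Galore 0.6.4, kallisto 0.4.6 and the build GRCm38.p6. The authors deposited estimated counts and TPM per gene and library, and the sources used here give neither the summing of transcripts into genes nor the annotation release. Symbols came from GENCODE M21, which matched 55144 of 55385 IDs by stable ID. A further ID of Atp5o, with 0.02 counts, was not kept.

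Estimated counts were rounded, filtered with filterByExpr (minimum count 10), TMM-scaled and tested with edgeR 4.0.16 (quasi-likelihood, robust, R 4.3.3) with Benjamini-Hochberg adjustment over 15043 genes. Alternatives used DESeq2 1.42.0, limma 3.58.1 (voom, and log2(TPM + 1) or log2(TPM + 0.1) with a mean TPM of at least 0.5), other scalings and filters, a replicate block, a hepatocyte covariate, and each library left out. Adding copies to their genes (at least 20% of 31-base words shared and 100 counts), leaving out Controls 2 and 4, and the muscle and brown fat list were chosen after the data were seen. Tables were handled in Python 3.11.15. The code was tested on simulated data, with 50 genes changed at each size. The edgeR fit called 24% of those changed 1.25-fold and 54% of those changed 1.5-fold. A gene that did not pass may therefore still differ.

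Members and lists were chosen with earlier results of these data known. Named are Acvrl1, all mitochondrial members, nuclear members that passed, tissue isoforms with their partners, the 2 members per complex highest in TPM, members with a library far from the others, and up to 4 passing genes per list, or the one of smallest p. Other genes named, such as Atp5g2, the copies and the genes beside Cox8b, were chosen after their values were seen. No pair of replicates looked like a library deposited a second time. Every replicate pair differed by more than sampling noise, and equal depth of about 23489494 to 23602771 counts limits precision alike in all libraries. Intervals cover counting error only.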

Additional observations from a re-analysis of the deposited data

Results flagged for a closer look

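In 7 of 200 groups of 5 values examined, or 3.5%, a library stood far from the other 4 of its group, where chance gives about 1 in 20. Control 4 was that library in 6 of the 7. Its mt-Nd2 level was 3994 CPM, with the other controls at 2325 to 2646 CPM, and its mt-Nd4 level was 6631 CPM, with the others at 3997 to 4632 CPM. For mt-Nd5 it had 2359 CPM beside 1394 to 1549 CPM, for mt-Co1 22352 CPM beside 14547 to 16184 CPM, and for mt-Atp6 6273 CPM beside 3652 to 4322 CPM. The summed mitochondrial level of Control 4 was 64697 CPM, beside 40102 to 46222 CPM in the other controls. Cox8a in knockout-labelled library 4 had 132 CPM, beside 115 to 119 CPM in the others of its group.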

How the results depend on the processing

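All 13 mitochondrial members stayed below 0 in all 34 alternatives, but the number that passed did not hold. It was 6 in the fit described, 11 with DESeq2, 2 without a filter, 1 on log2(TPM + 1), 3 on log2(TPM + 0.1), 11 with a replicate block, 0 with the hepatocyte covariate, 9 with copies added, 0 with copies added and the covariate, and 3 without Controls 2 and 4. Leaving out 1 library gave 0 to 8, and with copies added 1 to 10. The 5 nuclear decreases became 1 with library size alone, 3 without a filter, 0 on either TPM scale, 3 with a replicate block, 0 with the covariate with or without copies, and 0 without Controls 2 and 4, with 1 to 8 when 1 library was left out. Nuclear rises numbered 1, or 2 with DESeq2, library size alone and both TPM scales. Calls over all genes changed with the setting too. Of all genes, 2959 of 15043 passed, 3351 of 15043 with DESeq2 and 2653 of 31628 without a filter. On log2(TPM + 1) and log2(TPM + 0.1) 2151 and 2158 of 16020 passed, and with the hepatocyte covariate 2099 of 15043. With copies added 2965 of 15035 passed, without 1 library 2315 to 2871, and without Controls 2 and 4 1889. The log2 ratio of summed levels, -0.35, was -0.40 to -0.26 without 1 library and -0.29 without Controls 2 and 4. Beyond fewer samples or genes, the cause was not tested. For the 49 named genes, 1356 of 1665 values kept direction and call, 261 lost the call, 48 gained it and 0 called genes changed sign.

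The replicate block uses the replicate numbers, and the labels do not state whether these pair the samples. Same-numbered libraries correlated at -0.247 to 0.45 and the others at -0.511 to 0.461. Of the 10 libraries, 3 correlated best with their own number, a hint from the data and not the design. All genes passing were 2567 under the block. Depth was nearly equal and limits mainly Cox8b in controls and the untested isoforms.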
